A study of Mus musculus with 13 samples.

Results

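The 10 genes described here, of 16322 tested, are Fos, Fosb, Jun, Junb and Jund, which encode subunits of the transcription factor AP-1, together with Egr1, Atf3, Ier2, Nr4a1 and Nr4a3, other genes of the immediate early response. They were chosen by name, and each gene was read from the array probe annotated with its symbol alone. Each of the 10 had 1 such probe, and all 10 passed the filter on dim probes. The study followed the skin of mice through the day. Whole back skin was taken from male C57Bl6 mice at postnatal day 30, with follicles growing hair (anagen). The mice lived in 12 h of light and 12 h of dark on standard chow. Skin was sampled every 4 h over 48 h. Times are given as ZT, hours since the first lights on, and the first pool is ZT2 and the last ZT50. RNA of 3 mice was pooled in equal amounts for each time and put on 1 array, which gives 13 pools from 39 mice. Of these pools, 6 were taken in the dark and 7 in the light. All pools share the strain, sex, age, tissue and hair cycle phase, and no mutant or treated skin is among the samples analysed here. A pool is 1 sample, so the p-values below measure the spread between pools and not between single mice.

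Immediate early genes are switched on within minutes of a stimulus, without new protein synthesis. Growth factors, wounding, ultraviolet light and handling of the tissue are known triggers in skin. Fos and Jun family proteins pair to form AP-1, which binds DNA and drives genes of proliferation, matrix turnover and the epidermal barrier, while Egr1 and the Nr4a receptors act as separate transcription factors in the same early wave.

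The stretches of DNA around an annotated start of 5 members are shown because they hold matches to the short motifs named below. A match of letters does not show that a protein binds there or that a stimulus acts through it. Each covers 250 bases before to 50 bases after the annotated start, 5′ to 3′ on the gene's strand, from RefSeq (GRCm38.p6). Capitals mark matches to TGACG, the core of the site bound by CREB and ATF proteins, to TATAAA, the core of the TATA box, and to GCGNGGGCG, the site of the Egr proteins. TGACG and GCGNGGGCG were searched on both strands, so CGTCA is a match on the opposite strand, and TATAAA on the gene's strand only.
Fos: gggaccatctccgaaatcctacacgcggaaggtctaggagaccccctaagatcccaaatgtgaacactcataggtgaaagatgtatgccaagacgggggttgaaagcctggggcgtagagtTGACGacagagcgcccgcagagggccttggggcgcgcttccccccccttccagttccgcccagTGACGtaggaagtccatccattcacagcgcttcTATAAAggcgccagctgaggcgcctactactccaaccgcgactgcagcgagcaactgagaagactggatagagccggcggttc
Fosb: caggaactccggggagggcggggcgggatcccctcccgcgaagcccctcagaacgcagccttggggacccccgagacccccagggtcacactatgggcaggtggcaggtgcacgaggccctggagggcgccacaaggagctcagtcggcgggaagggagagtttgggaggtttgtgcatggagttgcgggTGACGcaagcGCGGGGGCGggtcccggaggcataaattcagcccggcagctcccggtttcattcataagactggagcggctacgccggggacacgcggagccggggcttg
Junb: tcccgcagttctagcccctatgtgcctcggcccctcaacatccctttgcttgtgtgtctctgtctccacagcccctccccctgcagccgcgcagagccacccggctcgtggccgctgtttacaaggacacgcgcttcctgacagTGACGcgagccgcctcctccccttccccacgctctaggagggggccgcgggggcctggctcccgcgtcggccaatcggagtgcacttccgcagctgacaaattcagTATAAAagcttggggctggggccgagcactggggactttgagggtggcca
Nr4a1: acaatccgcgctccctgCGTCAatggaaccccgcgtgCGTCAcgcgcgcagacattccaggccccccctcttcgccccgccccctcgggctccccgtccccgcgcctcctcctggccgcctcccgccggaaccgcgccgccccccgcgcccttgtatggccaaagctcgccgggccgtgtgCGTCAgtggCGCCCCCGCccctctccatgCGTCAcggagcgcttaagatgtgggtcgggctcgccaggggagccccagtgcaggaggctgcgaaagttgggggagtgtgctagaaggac
Nr4a3: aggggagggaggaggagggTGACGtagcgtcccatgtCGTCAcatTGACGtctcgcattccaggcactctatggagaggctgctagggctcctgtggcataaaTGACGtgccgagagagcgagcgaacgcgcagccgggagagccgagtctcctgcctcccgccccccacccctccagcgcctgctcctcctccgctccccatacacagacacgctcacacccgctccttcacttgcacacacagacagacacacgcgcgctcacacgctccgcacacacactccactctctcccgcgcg

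These windows lie at chr12:85473640-85473939 on the plus strand for Fos, at chr7:19309996-19310295 on the minus strand for Fosb, at chr8:84978699-84978998 on the minus strand for Junb, at chr15:101266596-101266895 on the plus strand for Nr4a1 and at chr4:48045055-48045354 on the plus strand for Nr4a3. The starts of Fos and Junb lie at the edge of the gene span, and those used for Fosb, Nr4a1 and Nr4a3 lie inside it. The spans of these 3 are chr7:19302696-19310118, chr15:101253902-101274795 and chr4:48045078-48086447. The whole window of Nr4a1 and most of that of Nr4a3 are thus within the gene. A window was at hand for 8 of the 10 members, and no other start of these genes was searched. TGACG was found in 6 of those 8, against 20.8% of all 32851 windows of this length. Nr4a1 and Nr4a3 each held 4 matches, a number reached by 76 windows in all (0.231%). Fos held 2 matches, at 129 and 66 bases before its start, and Fosb, Junb and Atf3 held 1 each. The windows of Jun and Jund held none. TATAAA was found in the windows of Fos and Junb, against 8.32% of all windows. In Fos it lay 33 bases before the start, and in Junb it lay at the annotated start itself. GCGNGGGCG was found in those of Fosb and Nr4a1, against 5.55%. TGANTCA, the AP-1 site, was in 0 of the 8 windows, against 7.81% of all windows, and the CArG box, the site of serum response factor, was in 0 of the 8, against 1.63%. Those letters are then absent from these windows, which says nothing of sites elsewhere.

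The tissue and the pools were checked first. Markers of basal epidermis (5 of 5 listed genes measured), hair shaft and follicle (6 of 7) and dermal fibroblasts (6 of 6) were present in every pool, and their summed intensity varied by 1.14-fold, 1.08-fold and 1.24-fold between the highest and the lowest pool. Skeletal muscle markers (9 of 9) varied by 2.10-fold, between 28526 at ZT2 and 59791 at ZT42. Liver transcripts (6 of 6) summed to 26921 at ZT46 and to 2890 in the lowest pool. Without ZT46, 0 of the 10 members were called in any of the 4 tests below, as with it. No member was near a call with all pools (smallest limma adjusted p = 0.325), so this cannot show what ZT46 adds. Ier2 had its highest intensity at ZT46, 530.7, and Jund its lowest, 2466. Array medians lay between 440.0 and 483.2, and the correlation of log2 values between pools lay between 0.978 and 0.996. In whole skin, fewer cells of a type and less RNA per cell cannot be told apart. Known daily genes show what a daily rhythm looks like in these pools: the fitted peak-to-trough ratio was 5.66-fold for Nr1d1, a clock repressor, and 5.85-fold for Dbp, a clock output factor (limma, adjusted p = 2.26e-04 and 0.00228).

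The immediate early genes varied from pool to pool without a daily pattern that passed the test. Over 13 pools the highest value of a member exceeded its lowest by 1.17-fold (Jund) to 1.70-fold (Egr1). The median SD of the members was 0.148 on the log2 scale, against 0.111 over all genes tested. An SD at or above that of Fos was found for 8.71% of all genes. Fos, Egr1, Nr4a3 and Junb had an SD above that of 91.3%, 90.1%, 82.7% and 81.6% of all genes, whereas Jund, Jun and Ier2 had one above only 6.25%, 7.39% and 9.42%. The median SD between pools of the same hour was 0.117 for the members and 0.112 for all genes.

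**Figure D1:**
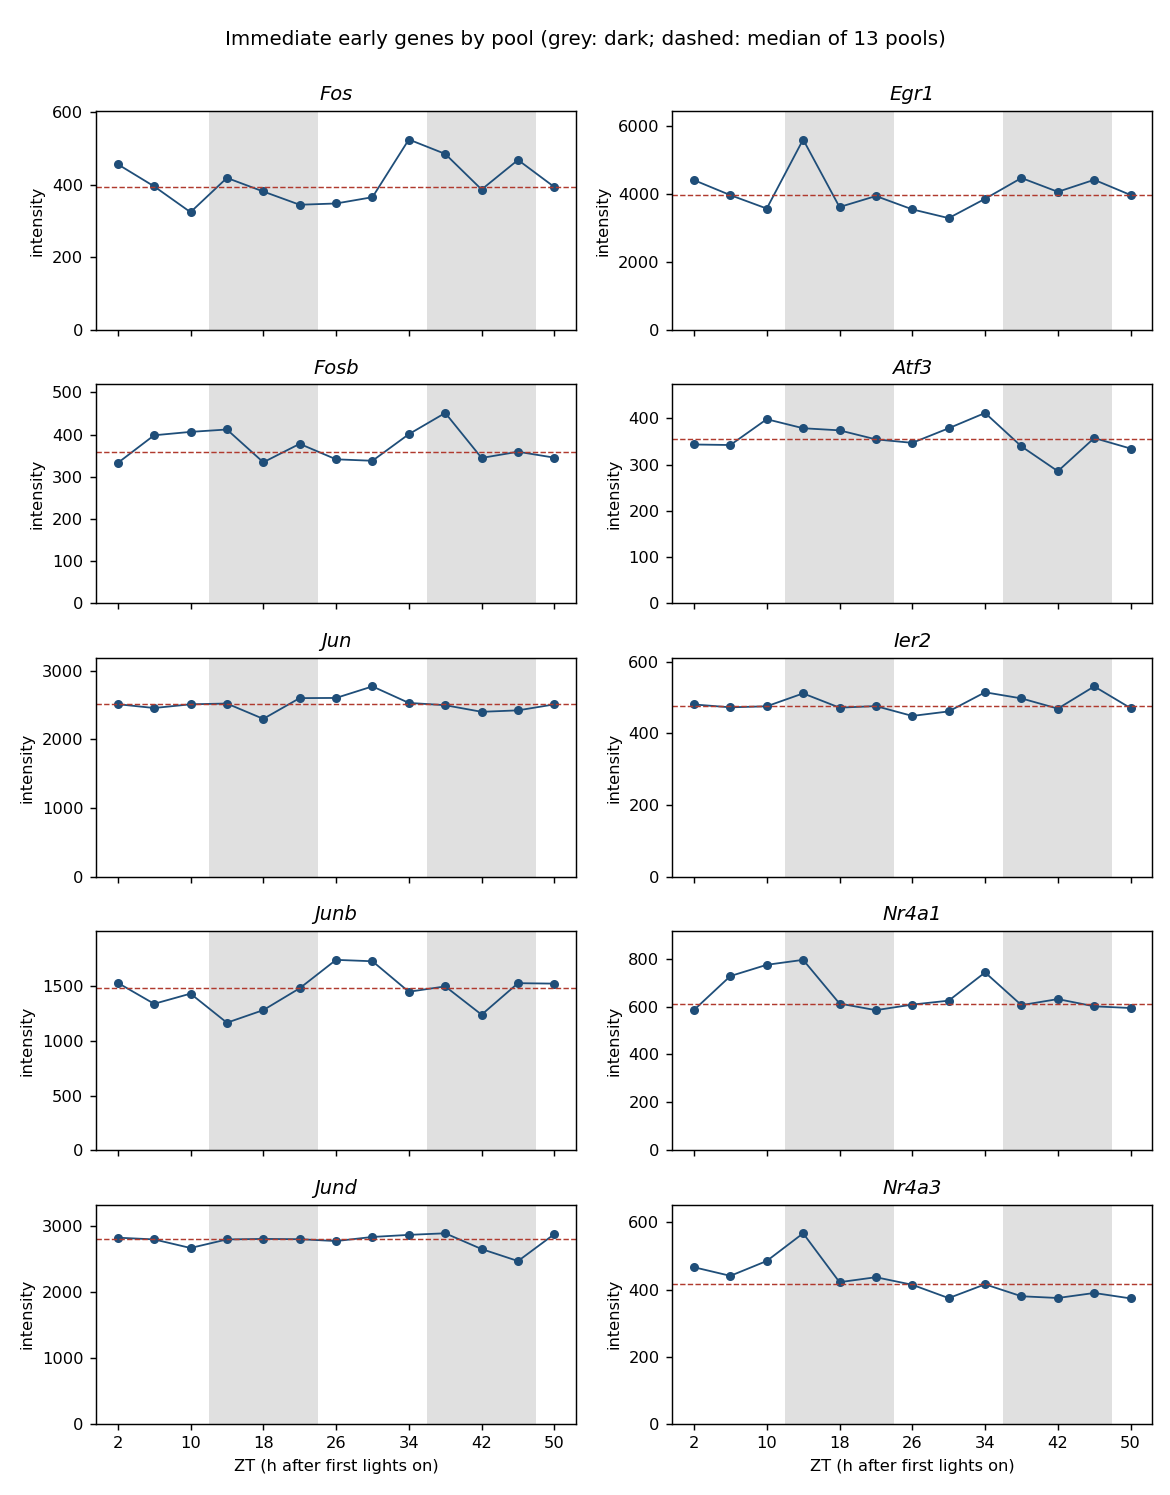
Intensity of each of the 10 genes (y axis, linear, from 0) in each of the 13 pools (x axis, ZT in hours), with dark periods in grey and the median of the 13 pools as a dashed line. Egr1, Nr4a1 and Nr4a3 have their highest value at ZT14, and Jun and Jund stay close to their median.

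**Figure D2:**
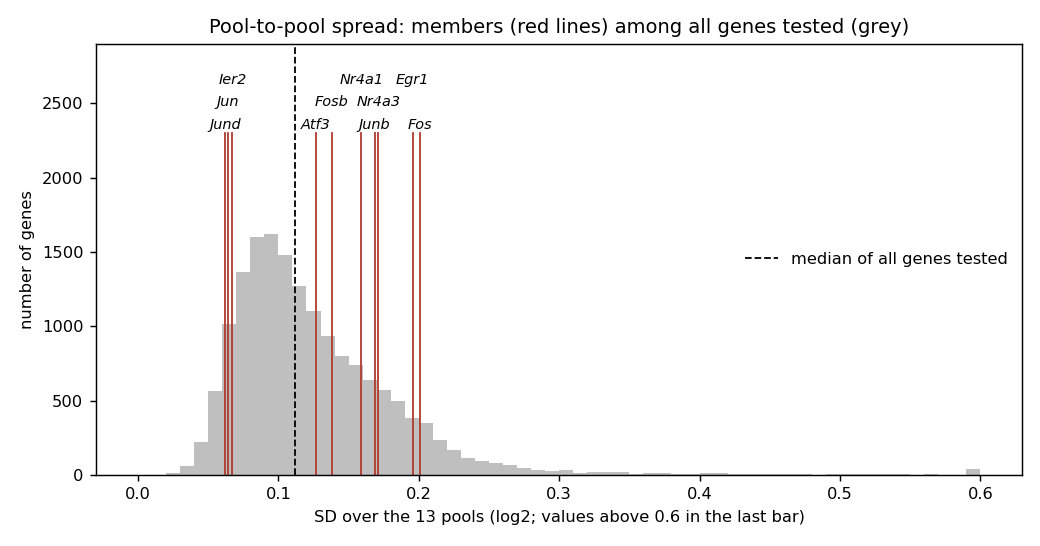
SD of log2 values over the 13 pools (x axis) as a histogram of all 16322 genes tested (y axis, number of genes), with a red line for each member and a dashed line at the median of all genes. Jund, Jun and Ier2 lie left of the median, and the other members lie right of it.

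Fos, the prototype of the family, had intensities of 457, 396, 325, 419, 382, 345, 349, 366, 525, 485, 387, 469 and 394 from ZT2 to ZT50. The highest pool was ZT34 and the lowest was ZT10, the same hour of the day on the other day. The fitted 24 h amplitude was 0.07 ± 0.07 on the log2 scale (SE), a peak-to-trough ratio of 1.102-fold, and did not pass the test (limma, adjusted p = 0.885). Fosb, a Fos relative that also pairs with Jun proteins, had intensities of 333, 398, 406, 412, 334, 378, 342, 338, 401, 451, 345, 359 and 345 over the same pools. It was high around the change to dark on both days, with 432 ± 27.7 at hour 14 and 404 ± 3.83 at hour 10 (SD, n = 2 each), and low at hours 2 and 18. Its amplitude was 0.13 ± 0.04 and the fitted peak fell 12.0 h into the day (limma, adjusted p = 0.484).

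Junb, a Jun family member that restrains proliferation in epidermis, had intensities of 1529, 1337, 1430, 1165, 1280, 1479, 1739, 1726, 1447, 1497, 1238, 1526 and 1522 from ZT2 to ZT50. The highest pools were ZT26 and ZT30 and the lowest were ZT14 and ZT42. By hour, its mean was highest at hour 2, with 1597 ± 123 (SD, n = 3), and lowest at hour 18, with 1259 ± 29.5 (SD, n = 2). Its amplitude was 0.17 ± 0.05, with a fitted peak at 4.0 ± 1.1 h and a ratio of 1.26-fold (limma, adjusted p = 0.442). Jun, the main partner of Fos, ranged from 2297 at ZT18 to 2769 at ZT30 with a median of 2509. Jund, the Jun family member known for steady expression, ranged from 2466 at ZT46 to 2886 at ZT38 with a median of 2797. Their amplitudes were 0.06 ± 0.03 and 0.03 ± 0.03, neither above the median of 0.06 over all genes (limma, adjusted p = 0.670 and 0.891).

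Nr4a1, an orphan nuclear receptor, had intensities of 585, 727, 774, 795, 612, 585, 608, 624, 742, 606, 631, 601 and 594 from ZT2 to ZT50. The pools of ZT6, ZT10 and ZT14 were high on the first day, and ZT34 was the only high pool of the second. Hour 10 had the highest mean, 758 ± 22.5 (SD, n = 2), and hour 22 the lowest, 593 ± 11.3 (SD, n = 2). Nr4a1 had the smallest adjusted p among the members for a 24 h rhythm, with an amplitude of 0.16 ± 0.04 and a fitted peak at 10.9 ± 0.97 h (limma, adjusted p = 0.404). Egr1, a zinc finger factor, Atf3, a stress-induced repressor, and Ier2, a nuclear protein of the early response, had amplitudes of 0.12 ± 0.07, 0.09 ± 0.05 and 0.04 ± 0.03 (limma, adjusted p = 0.685, 0.676 and 0.829). Nr4a3, a relative of Nr4a1, had 0.06 ± 0.04 (limma, adjusted p = 0.769).

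In all, 0 of the 10 members passed the test for a 24 h rhythm at an adjusted p under 0.05, against 0.141% of all genes tested (23 of 16322). At an unadjusted p under 0.05 the members were 3 of 10 (Nr4a1, Junb and Fosb), against 9.54% of all genes. The median amplitude was 0.08 for the members and 0.06 for all genes. Per1, a clock gene that also responds to early stimuli, had a larger amplitude, 0.38, and did not pass either (limma, adjusted p = 0.476).

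**Figure D3:**
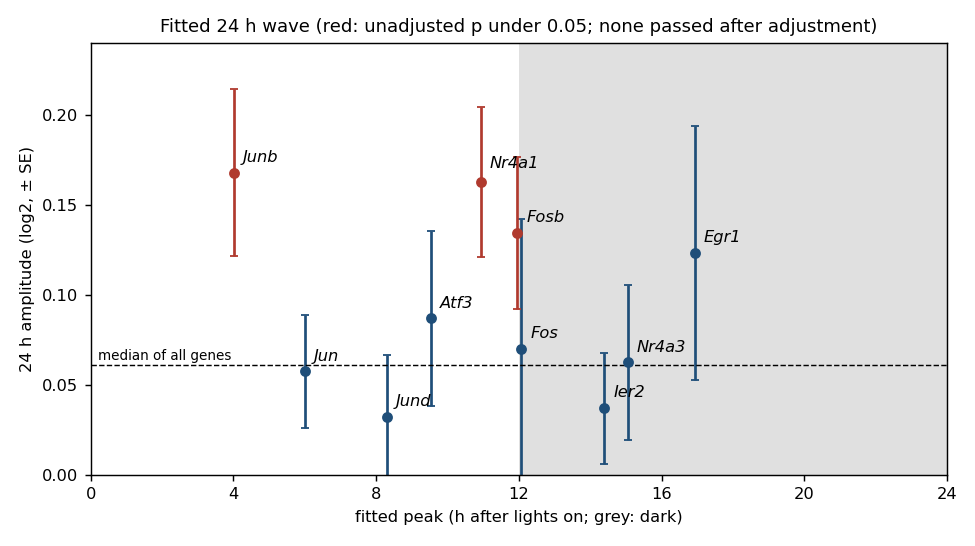
Fitted 24 h amplitude (y axis, log2, with its SE) against the fitted peak in hours after lights on (x axis, dark in grey) for each of the 10 genes, in red where the unadjusted p is under 0.05. Junb peaks at 4.0 h, Nr4a1 at 10.9 h and Fosb at 12.0 h, and the dashed line is the median amplitude of all genes.

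Dark and light pools were then compared. Egr1 had 3622 as its lowest, 4248 as its median and 5612 as its highest intensity in the dark, against 3296, 3865 and 4416 in the light. The dark pools had the higher median, and the groups overlapped. The difference was 0.20 ± 0.09 on the log2 scale (SE; 95% interval 0.00 to 0.40), which did not pass after adjustment (limma, adjusted p = 0.398). Without ZT14 it was 0.11. Junb had 1165, 1380 and 1526 in the dark, against 1337, 1522 and 1739 in the light. Its dark pools had the lower median, again with overlap, and the difference was -0.20 ± 0.08 (95% interval -0.36 to -0.04; limma, adjusted p = 0.362). No member was called (0 of 10), against 0.00613% of all genes, and the other 8 members had differences between -0.06 (Jun) and 0.07 (Nr4a3). For Fos the interval ran from -0.20 to 0.25. At an unadjusted p under 0.05, 1 of 10 was higher in the dark, against 7.56% of all genes, and 1 of 10 was lower, against 4.87%. For 0 of 10 members did the dark pools lie wholly above the light ones, against 0.110% of all genes, or wholly below them, against 0.165%.

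Nr4a3 stood apart from the other members between the days. Over the second day its intensities were 414, 375, 416, 380, 375 and 390, and over the first day they were 467, 441, 485, 567.8, 422 and 437. Every pool of the second day lay below every pool of the first, and no other member had days that did not overlap. Such a separation was seen in 0.276% of all genes, and the opposite one, which 0 of 10 members showed, in 0.0551%. The means were 391.6 ± 19.0 on the second day and 469.9 ± 53.0 on the first (SD, n = 6 each), a difference of -0.25 ± 0.06 on the log2 scale with the hour as a block (SE; 95% interval -0.39 to -0.10; limma, adjusted p = 0.976). This comparison of days was added after the values had been seen. As a linear drift over the 13 pools the slope was -0.21 ± 0.05 per 24 h (limma, adjusted p = 0.325), so the call was not made. No member passed the test for drift (0 of 10), nor did any gene (0.00% of 16322 by limma, with 1437 genes at an unadjusted p under 0.05). At an unadjusted p under 0.05, 1 of 10 members had a negative drift, against 5.59% of all genes, and 0 of 10 a positive one, against 3.22%. Skeletal muscle markers moved over the same days: their summed intensity was 32728 to 59791 on the second day and 28526 to 54793 on the first, and 4 of the 9 had a positive drift at an unadjusted p under 0.05. With the muscle mean as a covariate the drift of Nr4a3 was -0.22 (limma, adjusted p = 0.999).

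**Figure D4:**
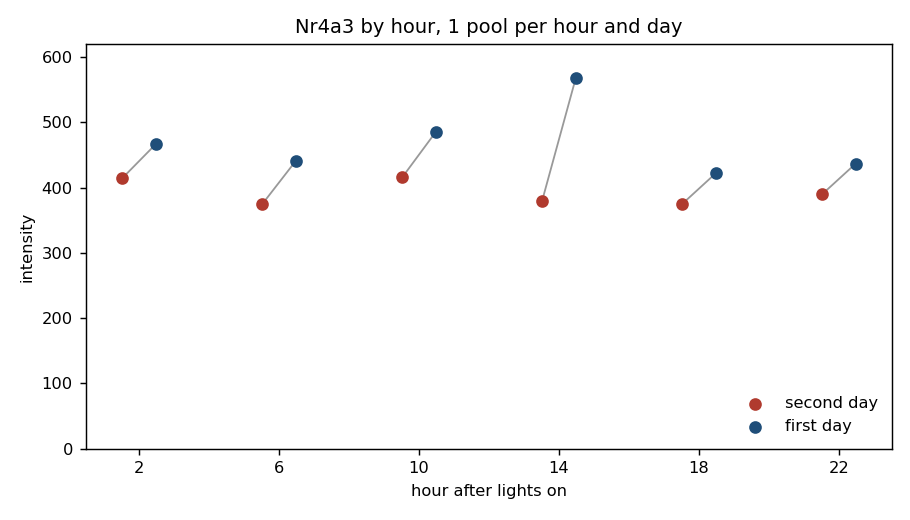
Intensity of Nr4a3 (y axis, from 0) by hour after lights on (x axis), with the second day in red left of the first day in blue and a line joining the pools of each hour. At all 6 hours the second day is lower, and the widest gap is at hour 14, with 380 on the second day and 567.8 on the first.

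The pool at ZT14 held the highest value of 3 members. Egr1 reached 5612, Nr4a1 795 and Nr4a3 567.8 there, each the highest of its 13 pools. Of the 10 members 9 were above their own mean, while 54.8% of all genes were, and Junb was at its lowest. Jun, Jund and Fos were above theirs by only 0.01, 0.01 and 0.05 on the log2 scale. The same hour a day later, ZT38, had 6 of 10 above their mean, with Egr1 at 4478, Nr4a1 at 606 and Nr4a3 at 380. At ZT34, where Fos and Atf3 were highest, 8 of 10 were above their mean, against 55.4% of all genes. At ZT42 it was 1 of 10, against 42.9%, and at ZT18 it was 2 of 10, against 58.6%. Cell type markers moved in the same pools. Of 15 marker lists, 5 had their highest mean log2 level at ZT14: mast cell (0.21 above the list's own mean), differentiated epidermis (0.19), dermal fibroblast (0.18), T and NK cell (0.17) and basal epidermis (0.10). At ZT34 adipocyte markers (0.22) and those of smooth muscle and pericytes (0.17) were highest. The part of these cell types in the values of the members was not tested.

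How far the members moved together was measured over the 13 pools. Of the 45 pairs of members, 29 had a positive correlation, and r ran from -0.538 to 0.748 with a median of 0.123. The closest pair was Fos and Ier2 (Pearson's r = 0.748, permutation p = 0.0033; Spearman's rho = 0.681, p = 0.0123), and r was 0.677 without ZT34 and ZT38, the pools farthest from the median of Fos. Among the 16321 other genes, 5 had a higher r with Fos than Ier2. Egr1 and Ier2 had r = 0.654 (permutation p = 0.0151) and rho = 0.621 (p = 0.0269), with r = 0.577 without ZT14 and ZT30. Jun and Junb had r = 0.652 (permutation p = 0.0155) and rho = 0.5 (p = 0.0839), with r = 0.466 without ZT18 and ZT30. Nr4a1 and Nr4a3 had r = 0.643 (permutation p = 0.0164) and rho = 0.341 (p = 0.254), and this rested on ZT10 and ZT14, since r was 0.132 without them. Fosb and Nr4a1 had r = 0.574 (permutation p = 0.0414) and rho = 0.434 (p = 0.143), with r = 0.822 without ZT14 and ZT38. These 5 pairs are those with an unadjusted p under 0.05 for r, and after Benjamini-Hochberg adjustment over the 45 pairs 0 remained under 0.05. The lowest r was that of Junb and Egr1, -0.538 (permutation p = 0.0576; rho = -0.291, p = 0.333), which was -0.205 without ZT14 and ZT42. Fos and Jun, the classical AP-1 pair, had r = -0.222.

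**Figure D5:**
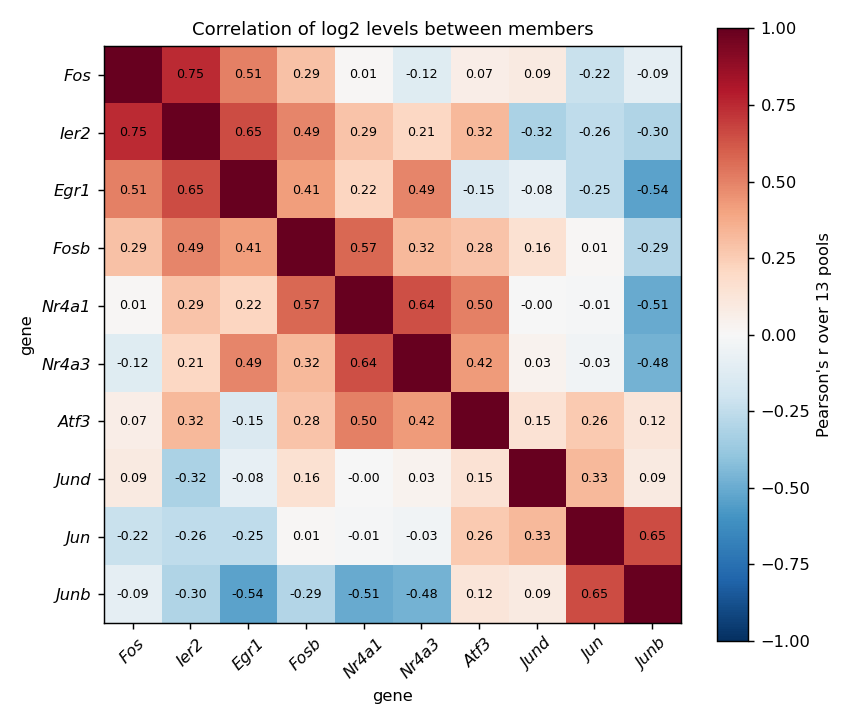
Pearson's r of log2 levels over the 13 pools for each pair of the 10 genes (both axes), from blue (-1) to red (1). Fos, Ier2 and Egr1 form a positive block at one corner, Jun and Junb a positive pair at the other, and Junb is negative with Egr1, Nr4a1 and Nr4a3.

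In the fit of every gene on the log2 level of Fos, 0 of the 9 other members passed, and neither did any gene (0.00% of 16321 by limma, with 420 at an unadjusted p under 0.05). Egr1 had a slope of 0.54 ± 0.24 per log2 unit of Fos (SE; limma, adjusted p = 0.9999) and Ier2 one of 0.25 ± 0.10 (limma, adjusted p = 0.9999). At an unadjusted p under 0.05 these 2 of 9 were higher with Fos, against 1.60% of all genes. Adipocyte markers also went with Fos, 2 of 5 upward at an unadjusted p under 0.05, against 1.60% of all genes. Skeletal muscle markers went against it, 4 of 9 downward, against 0.974%. The median slopes of these lists were 0.37 and -0.91. For liver transcripts the median slope was 1.21, with 0 of 6 at an unadjusted p under 0.05. With the adipocyte mean as a covariate the slopes of Egr1 and Ier2 were 0.38 and 0.16, and with the muscle mean they were 0.51 and 0.23. Without ZT46, the pool with the most liver transcripts, they were 0.51 and 0.22.

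Outside the members and the pathway lists, and passing over unnamed genes and receptor families, the 10 genes with the highest r with Fos over the 13 pools were Mgst2 (r = 0.787), Dtd2 (0.777), Nudt13 (0.767), Bcl2l12 (0.753), Pdzd11 (0.748), Ap3m2 (0.747), Hoxa3 (0.732), Fen1 (0.730), Thap3 (0.728) and Als2cl (0.702). The lowest were Slc25a11 (-0.806), Rps2 (-0.786), Actr5 (-0.764) and Tpi1 (-0.727). They are given as a description, with 13 pools behind each value.

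The wider pathway gave no call in any of the 4 tests. Of 39 measured other immediate early genes, 0 passed for a 24 h rhythm and 6 had an unadjusted p under 0.05, where the share over all genes was 9.54%. The smallest was that of Ccn2, a matricellular protein gene, with an amplitude of 0.16 ± 0.03 and a fitted peak at 4.1 h (limma, adjusted p = 0.2498), named after its value was seen. Egr2, a relative of Egr1, and Ptgs2, which encodes an enzyme of prostaglandin synthesis, had the largest slopes on Fos in that list, 0.43 and 0.37 (limma, adjusted p = 0.9999 for both). Of 15 measured other AP-1 and bZIP partners, 0 passed for a rhythm and 2 had an unadjusted p under 0.05, beside the same 9.54% of all genes. The largest slopes on Fos were those of Jdp2 (-0.16), an AP-1 repressor, and Atf4 (-0.14), a stress response factor. Of 17 measured upstream genes of the MAP kinase and serum response routes, 0 had an unadjusted p under 0.05, and their median amplitude was 0.02. Elk3 and Mrtfa, both cofactors of serum response factor, had the largest slopes on Fos there, 0.17 and 0.16.

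Of 17 measured AP-1 target genes, 0 passed and 1 had an unadjusted p under 0.05 for a rhythm, beside 9.54% of all genes. Mmp3, a matrix protease, had a slope on Fos of -0.76 ± 0.25 (limma, adjusted p = 0.9999), and Timp1, a protease inhibitor, had -0.58 ± 0.31. Plau, another protease, named after its value was seen, had 0.38 ± 0.16 (limma, adjusted p = 0.9999). At an unadjusted p under 0.05 the list held 1 gene higher with Fos, against 1.60% of all genes, and 1 lower, against 0.974%. The median slope of the list was 0.02, as over all genes tested. Of 9 measured heat shock genes, 0 passed between dark and light and 5 had an unadjusted p under 0.05, all higher in the dark, against 7.56% of all genes. The median difference was 0.15 for the list and 0.01 for all genes tested. Hspa1a and Hsph1, which encode chaperones, had the largest slopes on Fos, both 0.41. Of 10 measured hypoxia genes, 0 passed any test. Of these, 2 had an unadjusted p under 0.05 for a rhythm, against 9.54% of all genes. Between dark and light, 3 had one in either direction, against 2029 of all 16322 genes. The largest slopes were those of Car9 (-0.25), a carbonic anhydrase, and Egln3 (0.25), an oxygen sensor.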

How the data were processed

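Whole mouse skin was measured on 13 one-colour Affymetrix arrays, 1 per pool of 3 mice. The authors deposited 1 table of probe intensity on a linear scale, as its range shows. The software named in the submitters' processing notes is PLIER 2.0 and Affymetrix Expression Console 1.1.1, without a role for either. Scaling between arrays and the genome build are not given in the sources used here. The table holds 35557 probes, of which 21789 have 1 annotated symbol, 1621 several and 12147 none. Values were taken as log2(intensity + 16), so a fitted fold change is on that scale and understates changes of dim genes. Ratios of the highest to the lowest pool were taken on the intensities themselves. Probes with a mean under the 25th percentile (7.61) were left out, the highest-mean probe was kept for each gene, and 16322 genes remained. limma 3.58.1 in R 4.3.3 fitted a 24 h wave with linear time, dark minus light with linear time, the drift, and the slope on Fos. Benjamini-Hochberg adjustment ran over all genes, with a call at an adjusted p under 0.05. Intervals are 95% intervals. Correlations between members used 100000 permutations of the pools, two-sided. The scripts were tested on simulated data. Python 3.11.15 with matplotlib 3.10.9 made the figures. Alternatives were other scalings, pseudocounts, filters, priors, covariates and index genes, and leaving out each pool. Named genes were all 10 members, up to 2 genes per list with the largest slope on Fos, the 10 genes outside the lists with the highest and 4 with the lowest correlation with Fos, passing over predicted genes, RIKEN clones, small RNAs and sensory receptors, and Nr1d1, Dbp and Per1. Members and lists were chosen with earlier results of these data known. The number of arrays limits the precision.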

Additional observations from a re-analysis of the deposited data

Results flagged for a closer look

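In the dark pools, the value of Nr4a1 at ZT14 stood apart from the rest. It was 794.7, the next highest of the 6 dark pools was 631.0 and the lowest was 584.8. On the log2 scale the gap took 0.753 of the whole range. Nr4a3 did likewise at ZT14, with 567.8, a next highest value of 436.9 and a lowest of 374.9. Its gap took 0.633 of the range, again on the log2 scale. Chance alone marks about 1 in 20 such groups, and 2 of 20 groups of member values were marked here. Both marks come from the same pool, ZT14, so they are not independent of each other.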

How the results depend on the processing

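No member was called in any of the 112 alternative fits, and all 411 recomputed member values stayed on their side of the threshold. Of these, 276 are amplitudes, which have no sign. The other 135 belong to the members with the largest effects, and 0 of them reversed. They are the dark minus light differences of Junb and Egr1, the drift of Nr4a3, and the slopes on Fos of Egr1 and Ier2. Whether the smaller effects of the other members kept their sign is not covered by this count. Some alternatives could not differ. A threshold of 0.01 cannot call a member that missed 0.05, and a changed threshold leaves each value as it was. For the 24 h rhythm the smallest adjusted p of a member was 0.177 (limma, Nr4a1 without ZT38), for dark against light 0.143 (Junb without ZT22), for drift 0.222 (Nr4a3 with an intensity trend and robust prior) and for the slope on Fos 0.329 (Nr4a3 with Egr1 in place of Fos). Over all genes the number called for a rhythm was 23, against 9 with hour of day as a factor of 6 levels, 14 with 24 h and 12 h waves together, 15 with no filter, 12 at an adjusted p under 0.01 and 35 at one under 0.1. It was 13 without ZT18, 14 without ZT6, 14 without ZT10 and 15 without ZT2. For dark against light it was 1, against 0 to 4. For the slope on Fos, 0 genes were called under all 30 alternatives. At an unadjusted p under 0.05 there were 420, against 189 (adipocyte covariate) to 914 (without ZT34) on Fos, 2173 on Egr1 and 1939 on Junb in its place. The amplitude of Fos ran from 0.02 with the adipocyte mean as a covariate to 0.22 with the muscle mean. It was 0.15 without ZT2, 0.13 without ZT10 and 0.04 without ZT38. The amplitude of Ier2 ran from 0.01 to 0.07. Single pools also moved the amplitude of Nr4a3 (0.01 without ZT14), Egr1 (0.21 without ZT18, 0.07 without ZT14), Atf3 (0.05 without ZT34), Jund (0.01 without ZT46, 0.05 without ZT10) and Jun (0.04 without ZT30). The dark minus light difference of Egr1 was 0.11 without ZT14. The slope on Fos ran from 0.38 to 0.82 (without ZT34) for Egr1 and from 0.16 to 0.30 for Ier2. The 50th percentile filter removed Fos, Fosb, Atf3 and Nr4a3, so it gave no value for them. The comparison of days, added after seeing the data, matched pools by hour of day. The labels carry no replicate numbers, so no other pairing was made.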
